A study of Mus musculus with 6 samples.

Results

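Chromosome 5 carried 249 of the 2069 peaks of 5-hydroxymethylcytosine (5hmC) that were called in mouse embryonic stem cells (mESCs) with wild type or mutant TET1. Its members were chosen by the peak calls themselves: every region that the authors' peak caller placed on chromosome 5 was kept, and the WT and D2018A lists were held apart. The WT list contributed 150 of its 1230 peaks and the D2018A list 99 of its 839 peaks. 5hmC-Seal, the assay used, attaches a modified glucose and then biotin to 5hmC and captures the labelled fragments, so that sequenced fragments pile up where 5hmC is present. All cells were LF2 mESCs grown with LIF, and in all of them both Tet1 alleles had been edited with CRISPR-Cas9 to end in a FLAG tag, followed by a 2A sequence and GFP or tdTomato. The WT group comprised lines 2 and 5, the D2018A group comprised lines 7 and 8 with the TET1 mutation D2018A (aspartate to alanine), and each genotype had 1 input library made without labelling and capture. Every line was propagated from a single edited cell. The study's methods describe a deletion, distal to the cut site at Tet1, that the WT cells have and the D2018A cells lack. Using cells that kept wild type TET1 and an intact copy of the region, the authors attribute the expression and DNA methylation differences to D2018A. That check did not cover 5hmC.

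TET enzymes oxidize 5-methylcytosine to 5hmC, which is both a step on the way to unmethylated cytosine and a mark in its own right. In mESCs TET1 and TET2 make most of it, and it is known to lie in gene bodies, at enhancers and around CpG-rich promoters. OGT is the enzyme that adds the sugar GlcNAc to proteins. It binds the C-terminus of TET1, and D2018A weakens that binding. The comparison between the lists therefore asks where 5hmC was called along the chromosome with and without a normal TET1-OGT interaction. Mouse chromosome 5 has its centromere at the low-numbered end, so low positions are centromeric and high positions are telomeric.

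Each genotype was represented by 1 list for both of its lines, so no spread between lines was available and no test was made. The score of a peak is 10 times the negative log10 of the p-value that the caller gave it. Scores order the peaks of a list and do not measure the amount of 5hmC. Where the scores of a WT and a D2018A peak are given side by side, each is to be read within its own list, since the scale depends on a depth that was not known. A position missing from a list was not called, which is not the same as lacking 5hmC. Positions are given on the mm9 build, and no genes were assigned to them.

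Chromosome 5 ranked second of 20 chromosomes by peak number in both lists, after chromosome 8. It held 12.2% of the WT peaks (95% Wilson interval 10.5 to 14.1%) and 11.8% of the D2018A peaks (9.79 to 14.2%). The median over the other chromosomes was 50 WT and 30 D2018A peaks, and leaving chromosome 8 aside the next fullest chromosome had 82 WT and 57 D2018A peaks. The peaks on chromosome 5 covered 102140 bp in WT and 43199 bp in D2018A, which was 12.4% and 12.7% of the DNA covered by each list.

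Most of these peaks lay beyond 100 Mb, and 12.7% of the WT and 15.2% of the D2018A peaks lay before it. No peak of either list began before position 22058333. Up to 100 Mb there were 19 WT and 15 D2018A peaks, between 100 and 112 Mb there were 10 and 5, between 112 and 117 Mb there were 67 and 47, and beyond 117 Mb there were 54 and 32. The stretch from 112 to 117 Mb is the only run of neighbouring 1 Mb windows with at least 3 peaks of each list in every window, a definition made after the positions had been seen. It held 44.7% of the WT and 47.5% of the D2018A peaks of the chromosome. It also held 49.7% of the base pairs that WT peaks covered on chromosome 5 and 52.3% of those that D2018A peaks covered.

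**Figure D1:**
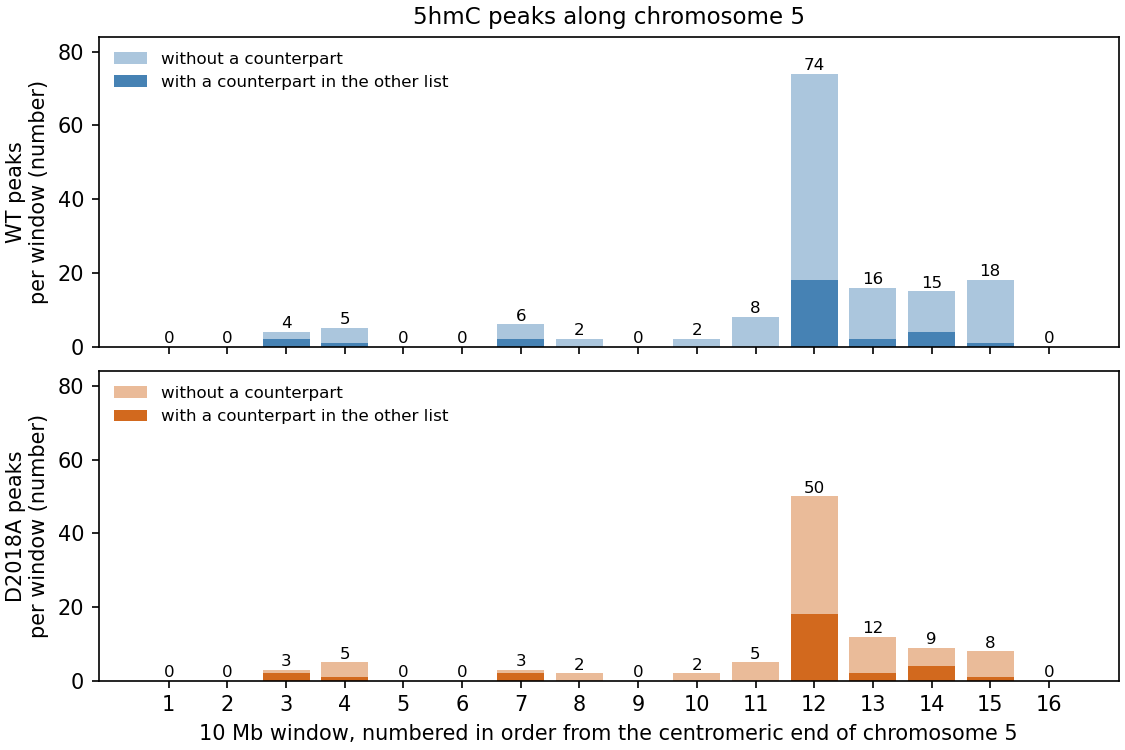
Number of 5hmC peaks in each 10 Mb window of chromosome 5, in order from the centromeric end, for WT (top) and D2018A (bottom). Dark bars are peaks that overlap a peak of the other list and light bars are the rest; window 12 holds 74 WT and 50 D2018A peaks, and 6 of the 16 windows hold none in either list.

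Counted in 10 Mb windows, both lists had their most peaks in the same window. The window from 110000001 to 120000000 held 74 WT and 50 D2018A peaks, and the 3 windows that follow it held 16, 15 and 18 WT peaks and 12, 9 and 8 D2018A peaks. No other window had more than 8 WT or 5 D2018A peaks. The windows from 110000001, 120000001 and 140000001 had the most peaks when both lists were added together. These 3 windows held 72% of the WT and 70.7% of the D2018A peaks of the chromosome. At a resolution of 1 Mb, 29 windows had peaks of both lists, 18 had WT peaks alone and 9 had D2018A peaks alone. The WT list is the longer one and other chromosomes were not counted in this way, so these numbers are not compared. The fullest 1 Mb windows were neighbours: those from 114000001, 115000001 and 116000001 held 19, 16 and 18 WT peaks and 12, 8 and 17 D2018A peaks.

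The peaks of the first 100 Mb came in a few groups with long empty stretches between them. The first WT peak was chr5:22058333-22058861 with a score of 52.22, and the first D2018A peak was chr5:24379476-24379701 with a score of 50.91. Near 26 Mb both lists had the same pair of wide peaks. WT had chr5:26333152-26334710, the widest of its peaks on the chromosome at 1559 bp, with a score of 104.28, and D2018A had chr5:26333383-26334385 inside it, 1003 bp wide with a score of 61.44. The second pair was chr5:26396854-26398115 in WT, with a score of 70.09, and chr5:26397068-26398049 in D2018A, with a score of 71.83. These were the widest and the second widest D2018A peaks on chromosome 5.

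A further pair lay at 31 Mb. The WT peak chr5:31370643-31371403 scored 73.06, and the D2018A peak chr5:31370802-31371341 inside it scored 103.25. Each list had a further peak close by that the other did not share, D2018A at chr5:31375721-31376240 (score 61.74) and WT at chr5:31378757-31379351 (score 53.60), with 2516 bp between them. The narrowest WT peak on the chromosome, chr5:31678110-31678459, was 350 bp wide and had no counterpart.

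The longest stretch without a peak of either list ran from 37496139 to 64564648, a length of 27.1 Mb. In D2018A alone the empty stretch was longer, from 33076836 to 65694005, or 32.6 Mb. Between 66 and 68 Mb both lists called chr5:66417283-66418089 (WT, score 122.42) and chr5:67791114-67791762 (WT, score 92.74), with D2018A scores of 66.44 and 66.70. No further position was shared until 113931892. A second empty stretch ran from 77628889 to 92705735, a length of 15.1 Mb, and none of the 10 WT and 5 D2018A peaks between 100 and 112 Mb overlapped a peak of the other list. Over all chromosomes 15.2% of the WT and 22.5% of the D2018A peaks overlapped one, and with so few peaks the upper limits of the Wilson intervals for these zeros, 27.8% and 43.4%, lie above those shares. Among the peaks between 100 and 112 Mb was chr5:107759862-107760514, a WT peak with a score of 100.28.

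In the stretch from 112 to 117 Mb the peaks of both lists lay close together, and 18 peaks of each list formed overlapping pairs, which was 26.9% of the WT peaks there (Wilson interval 17.7 to 38.5%) and 38.3% of the D2018A peaks (25.8 to 52.6%), beside 15.2% and 22.5% over all chromosomes. The stretch was defined by having peaks of both lists, which favours overlap, so nothing is read from these shares. The first peak of the stretch was called in D2018A at 112228720 and the last in WT, ending at 116917797, a span of 4689 kb. The WT peaks there had a median score of 60.97 and a median width of 688 bp, beside 58.73 and 621.5 bp over the whole chromosome. The D2018A peaks had a median score of 63.71 and a median width of 450 bp, beside 59.43 and 406 bp. Of the 31 WT peaks on chromosome 5 with a score of at least 80, 19 lay in this stretch, and of the 13 such D2018A peaks 11 did.

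**Figure D2:**
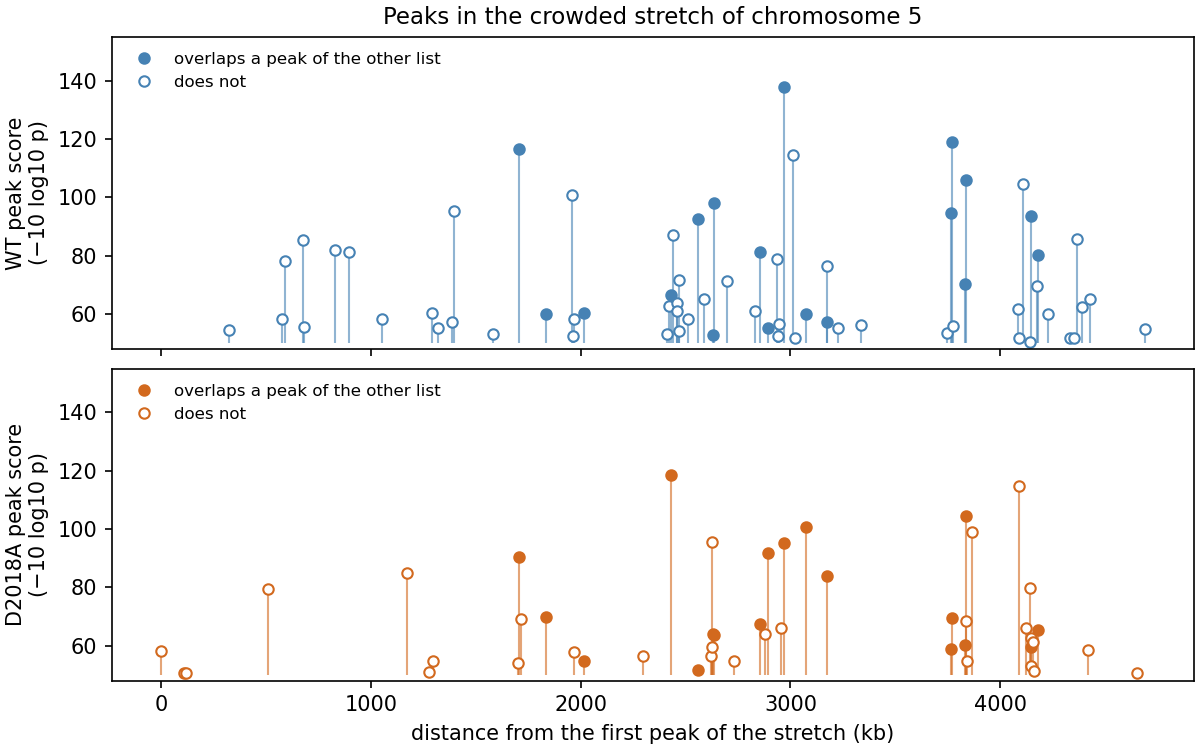
Score of each peak between 112 and 117 Mb of chromosome 5 against its distance from the first peak of the stretch, for WT (top, 67 peaks) and D2018A (bottom, 47 peaks). Filled circles overlap a peak of the other list and open circles do not; both lists are crowded towards the telomeric end of the stretch, and the tallest WT and the tallest D2018A peaks stand at different positions.

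Joining peaks of a list while the gap to the next was at most 100 kb gave 25 WT clusters with 97 peaks and 15 D2018A clusters with 52 peaks. Outside clusters there were 53 WT and 47 D2018A peaks. Of the clusters, 12 in WT and 9 in D2018A were mere pairs of peaks. In all, 5 WT clusters and 4 D2018A clusters had 5 or more peaks, and every one of them lay between 114 and 117 Mb. They held 46 WT and 28 D2018A peaks. At least 1 peak of the other list lay within the span of 13 WT clusters and of 12 D2018A clusters.

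The largest WT cluster, chr5:114640116-114925528, had 14 peaks with scores from 52.77 to 98.07. A total of 7 D2018A peaks lay in the same span, and 4 of the 14 WT peaks overlapped one of them. One of these was the position with the second highest D2018A score on the chromosome: chr5:114660603-114661383 scored 118.46 in D2018A, whereas chr5:114660848-114661497 scored 66.31 in WT. At chr5:114788020-114788704 the WT peak scored 92.47 and the D2018A peak 51.72. A double peak was called in both lists, in WT at chr5:114860832-114861474 (score 52.77) and chr5:114861825-114863270 (score 98.07), and in D2018A at chr5:114860857-114861379 (score 64.08) and chr5:114861898-114862345 (score 63.71). Beside it D2018A had chr5:114856382-114856974 with a score of 95.70 and no WT peak nearer than 3857 bp.

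The second WT cluster, chr5:115060792-115455289, had 13 peaks, and 5 of them overlapped a D2018A peak. It held the highest WT score of the chromosome, 137.76 at chr5:115199132-115199669, which ranked 12 in the whole WT list. The D2018A peak at that position, chr5:115199222-115199699, scored 95.25. The cluster had 4 other shared positions. D2018A scored 91.78 at chr5:115123683-115124510, 100.63 at chr5:115301708-115302344 and 84.05 at chr5:115402222-115402667, where WT scored 55.16, 60.03 and 57.09, and at chr5:115085093-115085837 WT scored 81.36 and D2018A 67.54. A WT peak with a score of 114.38, chr5:115242039-115243070, had no D2018A peak within 42339 bp.

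Around 116 Mb, 6 WT and 7 D2018A peaks formed clusters at the same place, and 4 peaks of each were paired. Those pairs included chr5:115999459-116000601, with a WT score of 118.94 and a D2018A score of 69.69, and chr5:116066308-116067138, where WT scored 105.95 and D2018A 104.34. The latter was the only one of the 30 pairs on chromosome 5 in which both scores reached 100. The 2 remaining pairs began at 115995227 and 116060812, with WT scores of 94.46 and 70.11 and D2018A scores of 58.99 and 60.21. D2018A extended further on the telomeric side, with chr5:116095608-116096227 at a score of 98.86 and no WT peak within 28469 bp.

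From 116312068 on, both lists were crowded again. WT had 8 peaks in chr5:116312068-116456167 and D2018A had 9 in chr5:116316304-116411346, of which 2 of each were paired, at 116377392 (WT score 93.65, D2018A score 59.73) and at 116410843 (80.16 and 65.44). The third highest D2018A score on the chromosome, 114.71 at chr5:116316304-116316913, fell between WT peaks that lay 2968 bp before it and 3106 bp after it and scored 61.52 and 51.74. The WT peak chr5:116335983-116337009, with a score of 104.56, likewise had no D2018A peak within 14718 bp. Next came a WT cluster of 5 peaks, chr5:116563731-116657761, with scores from 51.64 to 85.72. It contained 1 D2018A peak and no pair.

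On the centromeric side of the stretch, before 114640116, there were 3 pairs. The WT clusters at chr5:112803972-112912116 (4 peaks) and chr5:113054600-113122887 (2 peaks, scores 82.03 and 81.36) contained no D2018A peak at all. D2018A had its own peak chr5:113399682-113400298 there, with a score of 85.10 and no WT peak within 116867 bp. The pairs were chr5:113931892-113933231 (WT score 116.36, D2018A score 90.54), chr5:114063636-114065103 (60.13 and 69.84) and chr5:114245224-114246017 (60.40 and 54.68). In the first of these the midpoints of the WT and the D2018A peak differed by 1.5 bp, the smallest offset of all pairs.

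Beyond 117 Mb the peaks thinned out, and 7 of the 54 WT and 7 of the 32 D2018A peaks were paired. These shares, 13.0% and 21.9%, were near the 15.2% and 22.5% of all chromosomes. The pairs began, by their WT positions, at 122319037, 129849851, 131916033, 134692891, 135825470, 139296736 and 140095341. At 122319037, 134692891, 135825470 and 139296736 the WT scores were 100.21, 89.42, 107.05 and 93.18, and the D2018A scores were 53.93, 58.65, 58.37 and 67.10. At 129849851 the scores were 53.14 in WT and 53.10 in D2018A, both close to the lowest called. At 140095341 WT scored 58.92 and D2018A 75.12. The remaining pair was at chr5:131916046-131916641, where D2018A reached 125.13, its highest score on the chromosome and rank 6 in its whole list, while the WT peak chr5:131916033-131916602 scored 53.10.

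Several strong WT peaks beyond 117 Mb had no counterpart. The strongest was chr5:144005794-144007046 with a score of 129.16, second on the chromosome, and the nearest D2018A peak was 490617 bp away. The next, chr5:134691832-134692882 with a score of 116.47, ended 8 bp before the WT peak that D2018A shared at 134692891, so that the D2018A peak there, chr5:134693134-134693468, lay 251 bp from it. A further one, chr5:125506639-125507570 with a score of 108.84, was 78900 bp from any D2018A peak. At 123 Mb the lists differed in the other direction: D2018A had a cluster of 3 peaks in chr5:123184059-123229539, with scores up to 76.42, and 4 peaks in the 1 Mb window from 123000001, where WT had none. The last peaks were chr5:148527936-148528471 in WT (score 51.62) and chr5:149810812-149811039 in D2018A (score 50.61), and the 3 D2018A peaks past 149 Mb had no WT peak beyond them.

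Over the whole chromosome, 30 WT peaks overlapped a D2018A peak by at least 1 bp, each with exactly 1 partner. This was 20% of the 150 WT peaks (95% Wilson interval 14.4 to 27.1%), and over all chromosomes 15.2% of WT peaks had a counterpart. The same 30 pairs made up 30.3% of the 99 D2018A peaks (22.1 to 40.0%), and over all chromosomes the share was 22.5%. Chromosome 8, the only one with more peaks, had shares of 19.9% (15.4 to 25.4%) in WT and 32.7% (25.7 to 40.5%) in D2018A. On the chromosomes other than these the shares were 13.0% (10.9 to 15.4%) and 18.6% (15.7 to 22.0%). The intervals cover counting error only and treat peaks as independent, which neighbouring peaks are not, so no difference between chromosomes is claimed from them.

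Within chromosome 5 the share of peaks with a counterpart was larger at scores of at least 80 than under 60 in both lists. In WT, 6 of 77 peaks with a score under 60 had a counterpart (7.79%, interval 3.62 to 16.0%), as did 7 of 42 peaks from 60 to under 80, 9 of 16 peaks from 80 to under 100 (56.3%, 33.2 to 76.9%) and 8 of 15 peaks with a score of at least 100 (53.3%, 30.1 to 75.2%). In D2018A the numbers were 8 of 53 (15.1%, 7.85 to 27.1%), 13 of 33, 4 of 7 and 5 of 6 (83.3%, 43.6 to 97.0%), so that most of the 30 shared D2018A peaks scored under 80. With a score limit of 80 in both lists, 3 pairs remained among 31 WT and 13 D2018A peaks, although 80 need not mark the same rank in each list. A rise with score was seen on the other chromosomes too, where the shares in the same order of scores were 10.4, 14.2, 25.6 and 41.1% in WT and 14.4, 27.8, 40.0 and 64.0% in D2018A. The WT rise was not steady in each part of them. On chromosome 8 the WT shares were 14.9, 8.22, 41.7 and 55.6%. Without chromosomes 5 and 8 they were 9.23, 15.8, 14.8 and 34.2%. In D2018A the shares rose at each step in both of these parts. The median score of the WT peaks was 85.39 with a counterpart and 57.38 without. For D2018A these medians were 66.90 and 57.13. Both lists also held peaks at the limit of calling, the lowest being chr5:141000120-141000651 in WT with a score of 50.11 and chr5:117788217-117788572 in D2018A with a score of 50.47.

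**Figure D3:**
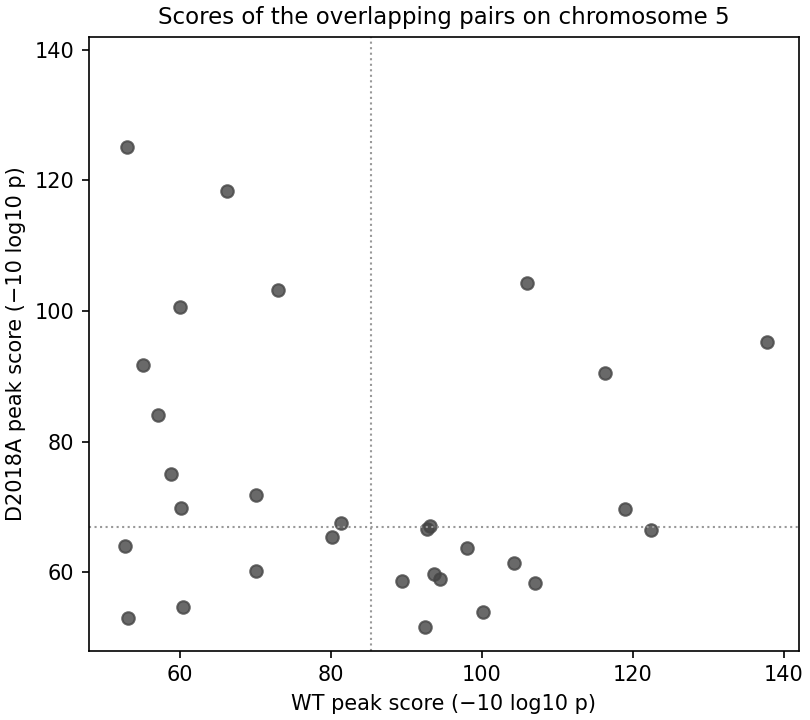
WT score against D2018A score for the 30 overlapping pairs on chromosome 5, each point being 1 pair and the dotted lines the medians of the pairs (85.39 in WT, 66.90 in D2018A). In 10 pairs the WT score alone lies above its median and in 10 the D2018A score alone, counts that a split at both medians makes equal.

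At the shared positions of chromosome 5 the D2018A scores did not follow the order of the WT scores. Of the 30 pairs, 5 had both scores above the medians of the pairs, 10 had the WT score alone above it, 10 the D2018A score alone, and 5 neither. A split at the medians makes the counts of 10 equal to each other, and likewise the counts of 5. A WT score of at least 80 stood beside a D2018A score under 60 in 6 pairs, and a D2018A score of at least 80 stood beside a WT score under 60 in 3. Scores of at least 80 belonged to 31 of the 150 WT and 13 of the 99 D2018A peaks, so these numbers of pairs are not compared. Spearman's rho between the scores was −0.16 over the 30 pairs, and no interval was computed for it. This is a description across positions that share the same libraries and, in part, the same clusters. Only positions that passed the caller's limit in both lists enter it, and pairs on other chromosomes were not examined.

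WT peaks were on the whole wider than D2018A peaks, although the ranges overlapped. WT widths ran from 350 to 1559 bp around a median of 621.5 bp, whose 95% interval was 574 to 661 bp. D2018A widths ran from 205 to 1003 bp, and their median of 406 bp had an interval of 367 to 445 bp. Settings of the peak caller and the number of reads, which bear on how wide a peak is called, were not known for either list, so a difference in calling and a difference in 5hmC cannot be told apart in these widths or in the nesting of shared peaks. On the remaining chromosomes the medians were 600.5 and 358 bp. The widest WT peaks after the one at 26333152 were those beginning at 114063636 (1468 bp) and 114861825 (1446 bp), and all 3 were shared. The widest D2018A peaks, of 1003, 982 and 895 bp, were also shared. The narrowest D2018A peaks were chr5:140056169-140056373 (205 bp), chr5:129849933-129850144 (212 bp) and chr5:149542978-149543192 (215 bp), and only the second had a counterpart, which with 366 bp was the third narrowest WT peak.

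**Figure D4:**
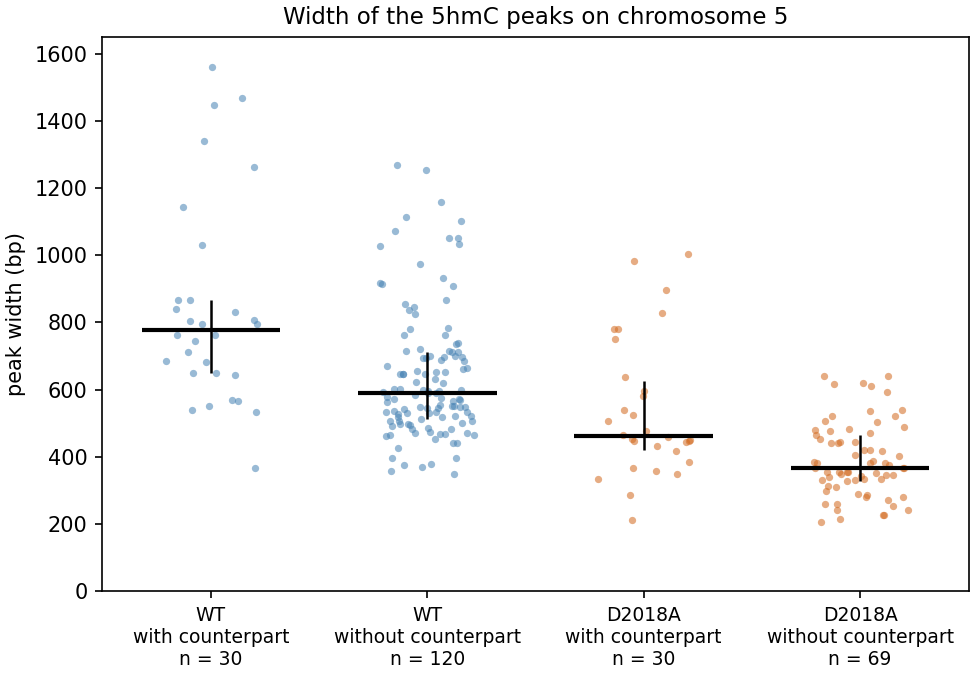
Width of every peak on chromosome 5, split by list and by whether the peak overlaps a peak of the other list; each point is 1 peak, the horizontal bar is the median and the vertical line the interquartile range. Peaks with a counterpart have the higher median in both lists, 778.5 against 590 bp in WT and 463 against 367 bp in D2018A.

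At the shared positions the D2018A peak usually sat inside the WT peak. The WT peak was the wider one in 27 of the 30 pairs, and in 23 pairs it contained the D2018A peak from end to end. The D2018A width was a median of 0.637 of the WT width, with a range from 0.310 at chr5:114861825-114863270 to 1.46 at chr5:115123730-115124296. The 3 pairs with a wider D2018A peak, at WT positions 114660848, 115123730 and 131916033, were also pairs in which D2018A scored 91.78 or more and WT 66.31 or less. The pair at 115301253 lay within the same limits (D2018A score 100.63, WT score 60.03). Its WT peak was nevertheless the wider one, with 683 against 637 bp. Midpoints lay a median of 79.25 bp apart, and in 19 pairs within 100 bp. The pair with its midpoints furthest apart was at 115301253, where they differed by 432 bp and 228 bp were shared.

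Width and score rose together within each list. WT peaks with a score under 60 had a median width of 562 bp and those with a score of at least 80 a median of 831 bp. In D2018A the corresponding medians were 354 and 610 bp. Spearman's rho between width and score was 0.54 over the 150 WT peaks and 0.64 over the 99 D2018A peaks, again as a description across peaks called from the same libraries.

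**Figure D5:**
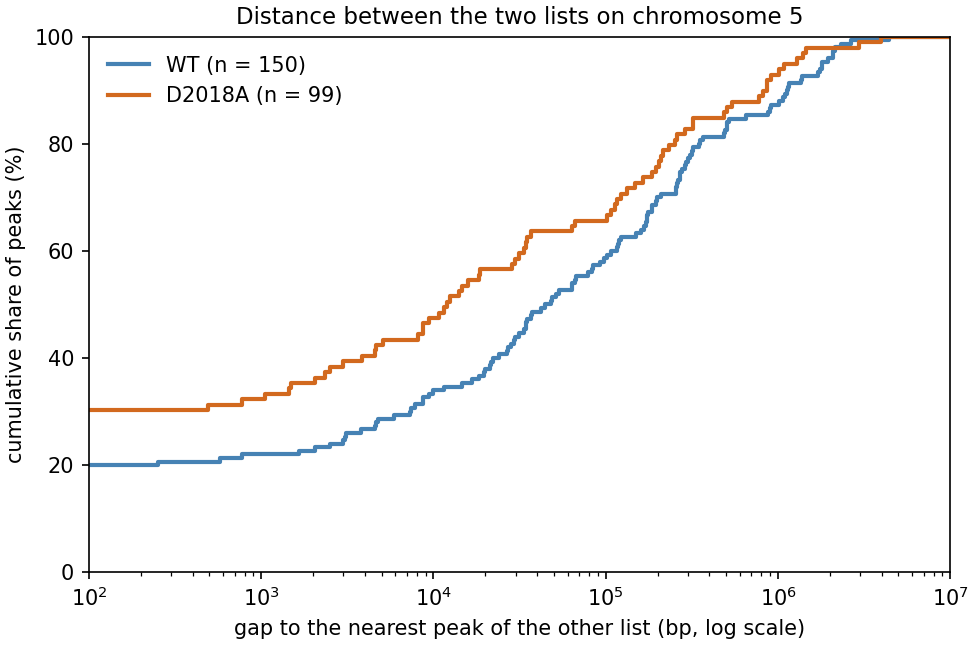
Cumulative share of the chromosome 5 peaks of each list by the gap to the nearest peak of the other list, on a log scale. The curves begin at the share of peaks that overlap (20% of WT and 30.3% of D2018A peaks) and reach 22.0% and 32.3% at a gap of 1000 bp, and 34.0% and 47.5% at 10000 bp.

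Few peaks without a counterpart lay within 1000 bp of a peak of the other list, and more lay within 50000 bp. The gaps were measured on chromosome 5 alone, so no share over all chromosomes stands beside these counts. Of the 120 WT peaks without a counterpart, 3 had a D2018A peak within 1000 bp, 13 within 5000 bp and 47 within 50000 bp, and the median gap was 112244 bp. Of the 69 D2018A peaks without a counterpart, 2 had a WT peak within 1000 bp, 12 within 5000 bp and 33 within 50000 bp, and the median gap was 66432 bp. Short gaps of this kind were found beside pairs, as at chr5:116376616-116376900, a D2018A peak 491 bp from a shared WT peak, and also where neither list had a pair, as at chr5:114195098-114195618 in D2018A and chr5:114196390-114196910 in WT, 771 bp apart with scores of 57.87 and 58.10. Counting overlaps together with gaps of up to 10000 bp, 34.0% of WT peaks (26.9 to 41.9%) and 47.5% of D2018A peaks (37.9 to 57.2%) had a neighbour in the other list.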

How the data were processed

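5hmC-Seal libraries of 2 WT and 2 D2018A mESC lines, with 1 input each, started from 100 ng of DNA. The authors used Trim_Galore for trimming, bowtie for alignment to mm9 and MACS for peak calling, and they deposited 1 list per genotype. How lines were combined and the settings of the caller are not given in the sources used here. The deposited score of each peak was read as 10 times the negative log10 of the caller's p-value. Peak starts and ends are the other values deposited by the authors. There were 0 further columns.

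Starts were converted to count from 1, and width is end minus start as deposited. Peaks overlapping by at least 1 bp were paired, and peaks up to 100 kb apart were clustered. Shares have Wilson intervals and medians have binomial order-statistic intervals, both at 95%. The depth is unknown. The functions were tested on simulated lists. Peaks named in the text are the pairs, the highest-scoring, widest, narrowest, lowest-scoring, first and last peaks, members of large clusters and peaks beside empty stretches. Other peaks, such as those near a peak of the other list, were chosen after their values were seen. Members and rules were chosen with earlier results of these data known. Alternatives were other overlap rules, score limits, cluster gaps, windows and merging of peaks. Peaks on chromosome 7 end at 151597125, past the 145441459 bp of that chromosome in the GRCm38 reference at hand, so no genes or sequences were read from it. Intervals came from scipy 1.17.1 and plots from matplotlib 3.10.9, run with pandas 2.3.3 and numpy 2.4.6 under Python 3.11.15.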

Additional observations from a re-analysis of the deposited data

How the results depend on the processing

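Of 53 recomputed values, 30 stayed within the range set for them (1.5 times a count, or the 95% interval of a share or median) and 23 moved, 21 of these with a higher score limit. With a score of at least 60 the chromosome kept 73 WT and 46 D2018A peaks, 17 pairs, and 14 WT and 9 D2018A clusters. The median widths there were 713 and 477 bp and the median scores 75.59 and 68.895 (WT and D2018A). The 3 fullest 10 Mb windows were ranked by the peaks of both lists together. Their share was 79.5% in WT (72% as deposited) and 71.7% in D2018A (70.7% as deposited). The shares between 112 and 117 Mb were 54.8% and 58.7%. With a score of at least 80 there were 31 WT and 13 D2018A peaks and 3 pairs, chromosome 5 held 17.5% of the WT and 15.7% of the D2018A list, and 61.3% and 84.6% of its peaks lay between 112 and 117 Mb. Removing the peaks under the limit lowers the counts of peaks and pairs and raises the median scores by construction. The cause of the other changes was not tested. Limiting the widths to pairs gave medians of 778.5 and 463 bp.

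The number of paired WT peaks was 21 with 50% of both peaks required to overlap, 26 by midpoint and 33 with a gap of up to 1000 bp. Merging peaks within 1000 bp moved no value, and the WT peak was the wider one in 85.7 to 94.1% of pairs under the alternatives tried. The stretch from 112 to 117 Mb and its alternatives, and those for the pair widths, were chosen after seeing the data.

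No paired analysis was possible because the lines of a genotype share a single list, and no line was left out in turn for the same reason. Without the reads, a peak missing from a list cannot be told apart from one that fell under the caller's limit.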

Other observations

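Some peaks of a list were separated by little. In WT, 5 pairs of neighbouring peaks were separated by less than 1000 bp, with gaps of 8 bp at 134692882, 37 bp at 141000082, 350 bp at 114861474, 455 bp at 115401644 and 595 bp at 114689066. In D2018A there were 3 such gaps, of 518 bp at 114861379, 567 bp at 116376900 and 671 bp at 116375944. The position at 114861474 in WT and 114861379 in D2018A was the only one where such a double peak was called in both lists. At 3 of the 5 WT positions at least 1 of the neighbouring peaks was paired with D2018A.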
